A study of Mus musculus with 6 samples.

Results

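Ppbp, Itga2b, Itgb3 and Thbs1, 4 genes of platelets and of the megakaryocytes that shed them, were followed in primary tumours of mice with oral squamous cell carcinoma. They were chosen by symbol from the 770 genes of the table, all 4 were found, and each was above background in all 6 libraries. The choice was made with the difference between these same groups already known, Ppbp having the widest of any gene, so that difference is described for these 4 genes without a test and supports nothing. The carcinomas had been induced with 4NQO (4-nitroquinoline 1-oxide), a chemical carcinogen that both groups received. In one group the mice were given vehicle, in the other agonistic anti-CD40, an antibody that activates CD40, and each group had 3 libraries of RNA from fixed, paraffin-embedded tumours. The labels used here state no age, genetic background, dose or timing and do not say whether each library came from a separate animal, so p-values measure only the spread between these libraries, and that spread may be partly technical. In RNA from whole tumour pieces, fewer cells of a type and less RNA per cell cannot be told apart.

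Megakaryocytes load platelets with messenger RNA and with granules before releasing them into the blood. Ppbp encodes pro-platelet basic protein, the precursor of the neutrophil-attracting chemokine CXCL7, which platelet alpha granules release. Itga2b and Itgb3 encode the alpha IIb and beta 3 chains of the platelet fibrinogen receptor, through which activated platelets aggregate. The beta 3 chain also pairs with alpha V on endothelial cells, macrophages and osteoclasts. Thbs1 encodes thrombospondin 1, an alpha granule protein that fibroblasts, endothelial cells and macrophages make as well. Ppbp and Itga2b are therefore the more restricted markers of the lineage among these genes. Activated platelets also display CD40 ligand, which binds the receptor targeted here.

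Values are log2 normalised counts as deposited, errors of means are SDs over the 3 libraries of a group, and each difference is the anti-CD40 mean less the vehicle mean. The whole counts recovered from them summed to between 333400 and 578598 per library over all genes. A gene was taken as above background where its count exceeded the mean plus 2 SD of the 8 negative controls, a limit of 5.57 to 6.52 log2 that was highest in vehicle 2. Of the epithelial markers in the table, Epcam, Cdh1 and Egfr were above background in all 6 libraries and Cd44 in 5, and the pan-leukocyte gene Ptprc lay between 8.48 and 9.37, so both epithelium and leukocytes were represented. Keratin genes were not analysed here. Of the 30 platelet and megakaryocyte genes listed for this comparison, 8 were in the table. Pf4 and the glycoprotein Ib, V, VI and IX genes were not analysed here, so the lineage was read from few genes.

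The start regions of the lineage-restricted genes are shown because Ppbp and Itga2b were high in the same libraries, and GATA and ETS factors are known regulators of megakaryocyte genes. Sequences are from RefSeq, build GRCm38.p6, 5′ to 3′ on the gene's strand, with 250 bases before and 50 after the annotated start. Itgb3 and Thbs1 were not matched in this promoter table. The words searched on both strands were AGATAA or AGATAG or TGATAA or TGATAG for GATA factors and AGGAAG or CGGAAG or AGGAAA or CGGAAA for ETS factors, and TATAAA was searched on the gene's strand. No word overlapped another in these windows. Capitals mark the matches. The Ppbp window is at chr5:90768268-90768567, plus strand, and the Itga2b window at chr11:102469834-102470133, minus strand.
Ppbp: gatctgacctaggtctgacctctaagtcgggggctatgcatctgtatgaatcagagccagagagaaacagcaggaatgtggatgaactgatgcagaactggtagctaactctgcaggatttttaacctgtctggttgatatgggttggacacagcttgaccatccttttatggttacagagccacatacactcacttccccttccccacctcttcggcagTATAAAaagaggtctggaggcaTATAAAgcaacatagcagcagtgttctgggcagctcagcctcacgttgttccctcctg
Itga2b: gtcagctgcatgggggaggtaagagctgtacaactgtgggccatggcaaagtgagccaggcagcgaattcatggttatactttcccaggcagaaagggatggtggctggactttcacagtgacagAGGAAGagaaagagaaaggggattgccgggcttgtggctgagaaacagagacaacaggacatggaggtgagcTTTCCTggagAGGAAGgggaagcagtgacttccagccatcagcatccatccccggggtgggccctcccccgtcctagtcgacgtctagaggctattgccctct
The Ppbp window held TATAAA starting 30 and 8 bases before the start, and none of the GATA or ETS words. The Itga2b window held AGGAAG starting 125 and 43 bases before the start and AGGAAA on the opposite strand from 53 bases before it, with no GATA word and no TATAAA. Of 32851 promoter windows of this length, 64.7% held an ETS word, 29.8% a GATA word and 8.32% TATAAA. These matches describe letters and not bound sites.

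All 4 genes had the higher mean in anti-CD40 tumours, where 54.5% of all 770 genes did. Their differences ran from 0.51 to 2.24 with a median of 0.81, beside a median of 0.04 over all genes. In none of the 4 were the groups separate: 0 of 4 had groups that did not overlap, beside 10.3% of all genes. With limma's moderated test and Benjamini-Hochberg adjustment, 0 of the 4 and 0% of all genes passed an adjusted p of 0.05 (lowest adjusted p 0.974), 25 of 770 had an unadjusted p under 0.05, and limma-voom on the recovered counts also called 0 (36 unadjusted). Since the genes were picked with this contrast known, these counts are descriptive.

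**Figure D1:**
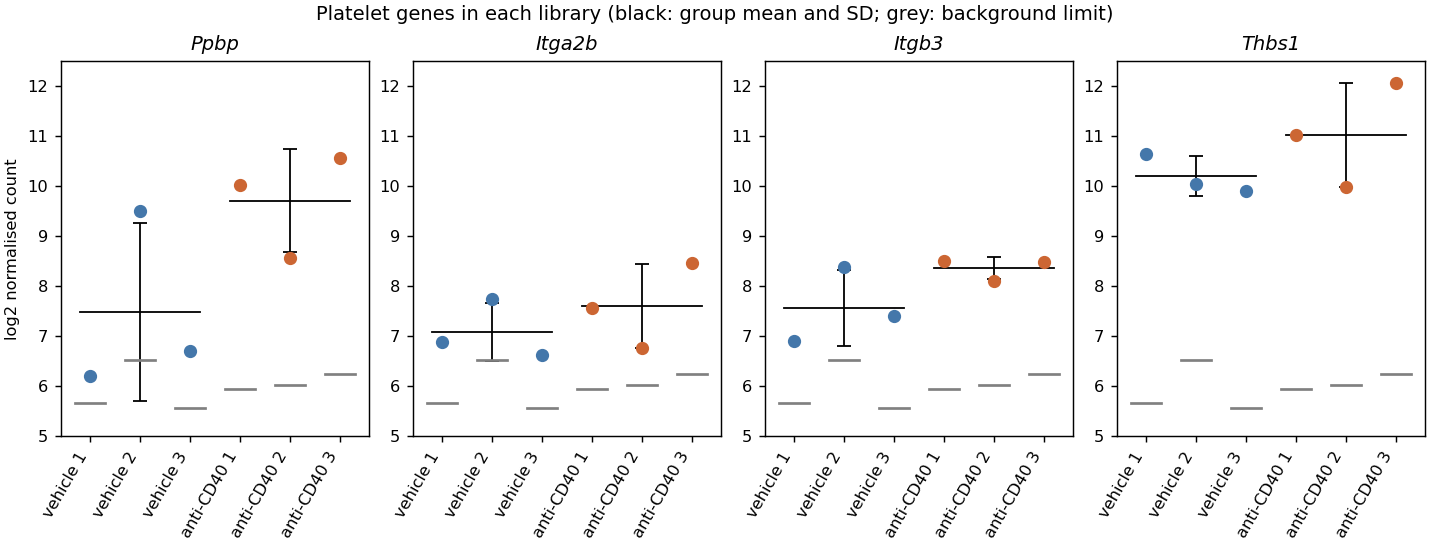
Log2 normalised count (y axis) of the 4 platelet genes in each vehicle (blue) and anti-CD40 (orange) library; black lines are the group mean and SD (n = 3), grey bars the library's background limit. Vehicle 2 sits near the anti-CD40 libraries for Ppbp (9.51) and Itgb3 (8.39), and anti-CD40 2 is the lowest of its group in all 4 panels.

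Ppbp, the chemokine ligand, stood at 6.21 in vehicle 1, 9.51 in vehicle 2 and 6.70 in vehicle 3. In the anti-CD40 libraries it stood at 10.01, 8.56 and 10.56 in libraries 1, 2 and 3. Vehicle 2 was thus above anti-CD40 2 by 0.95, and the groups overlapped through that library. The group means were 7.48 ± 1.78 and 9.71 ± 1.03, a difference of 2.24 (SE 0.90), or 4.71-fold on this scale. Without vehicle 2 the difference was 3.25, and without vehicle 1 it was 1.61. The span from the lowest to the highest library was 4.35 log2, 20.4-fold, the 10th widest of the 770 genes. Its pooled within-group SD of 1.46 ranked 13th, and was 0.87 without vehicle 2.

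The counts behind these values were low in part of the libraries. Ppbp had 38 counts in vehicle 1 (exact Poisson 95% interval 26.9 to 52.2, background limit 25.2) and 58 in vehicle 3 (lower bound 44.0), so both lay close above background. Vehicle 2 had 221 counts, anti-CD40 2 had 153, anti-CD40 1 had 450 and anti-CD40 3 had 539. After the authors' scaling, the intervals of vehicle 1 and 3 overlapped, and no other neighbours in the order anti-CD40 3, anti-CD40 1, vehicle 2, anti-CD40 2, vehicle 3, vehicle 1 did. These intervals cover counting error only. The gap between vehicle 2 and the other vehicle libraries was therefore wider than counting error.

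**Figure D2:**
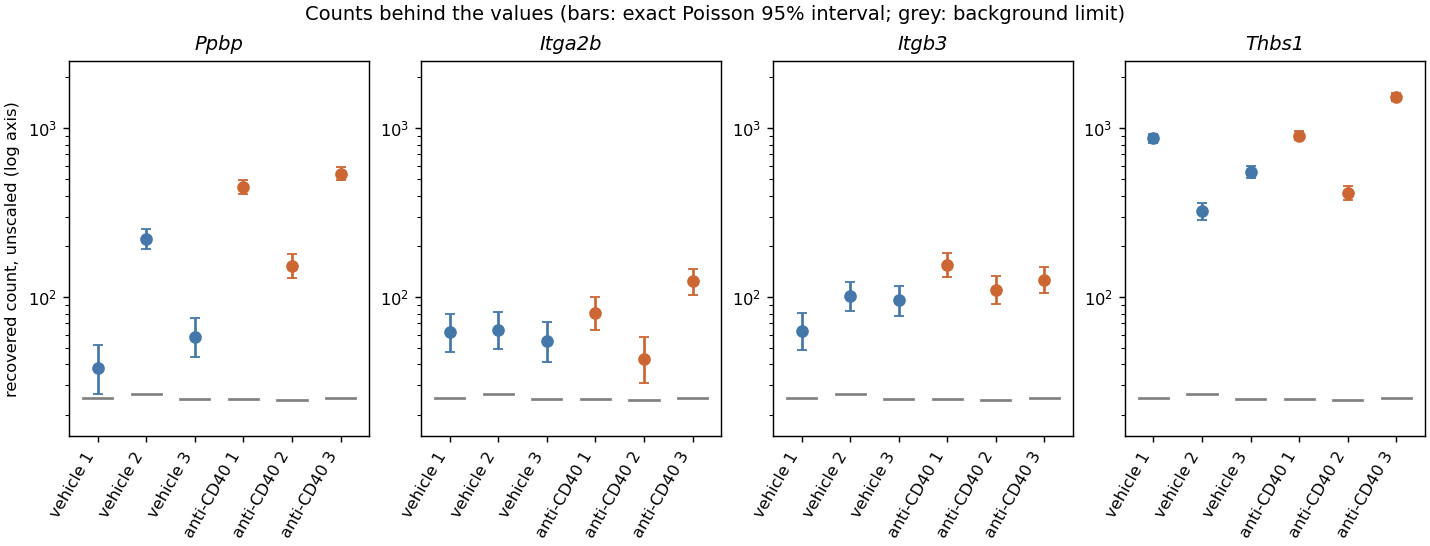
Recovered whole counts before scaling (log y axis) of the 4 platelet genes in each vehicle (blue) and anti-CD40 (orange) library, with exact Poisson 95% intervals; grey bars mark the background limit. Ppbp spans 38 to 539 counts, whereas Itga2b had 62, 64 and 55 counts in the 3 vehicle libraries.

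Itga2b, the alpha IIb chain, was 6.89, 7.75 and 6.63 in vehicle 1, 2 and 3 and 7.57, 6.77 and 8.46 in anti-CD40 1, 2 and 3. One library stood out at the top, anti-CD40 3, and anti-CD40 2 lay below vehicle 1. The means were 7.09 ± 0.58 and 7.60 ± 0.84, a difference of 0.51 (SE 0.48). Leaving out anti-CD40 3 reduced it to 0.08 and leaving out vehicle 3 to 0.28, whereas omitting vehicle 2 gave 0.84 and omitting anti-CD40 2 gave 0.93. The unscaled vehicle counts were 62, 64 and 55, and those of anti-CD40 were 81, 43 and 124. The count of vehicle 2 was close to those of vehicle 1 and 3, but its scaling factor was higher, 3.28 against 1.84 and 1.72. Its counts over all genes summed to 357258, against 578598 and 488585. A like count therefore stood for a higher level after scaling. Centred on housekeeping genes, Itga2b was 7.70 in vehicle 2, against 6.89 and 6.64 in vehicle 1 and 3. Only anti-CD40 3, with an interval of 103 to 148, had an unscaled count clear of all others. After scaling, its interval (8.20 to 8.71 log2) was still clear of all others. That of vehicle 2 (7.38 to 8.09) lay above those of vehicle 1 (6.52 to 7.23), vehicle 3 (6.24 to 6.99) and anti-CD40 2 (6.33 to 7.19). It overlapped only that of anti-CD40 1 (7.25 to 7.88).

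Itgb3, the beta 3 chain, was 6.91, 8.39 and 7.40 in vehicle 1, 2 and 3. It was 8.50, 8.11 and 8.49 in anti-CD40 1, 2 and 3. The anti-CD40 libraries were close together, vehicle 2 was among them, and vehicle 1 and 3 were lower. The means were 7.57 ± 0.76 and 8.37 ± 0.22, 0.80 apart (SE 0.39), or 0.47 without vehicle 1 and 1.21 without vehicle 2. Counts were between 63 in vehicle 1 and 156 in anti-CD40 1. In the order of levels, the intervals of the top 4 libraries, anti-CD40 1, anti-CD40 3, vehicle 2 and anti-CD40 2, overlapped.

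Thbs1, the granule and matrix protein thrombospondin 1, followed another order. It was 10.65, 10.05 and 9.90 in vehicle 1, 2 and 3 and 11.02, 9.99 and 12.07 in anti-CD40 1, 2 and 3. Vehicle 2 was not raised here, and anti-CD40 2 lay between vehicle 2 and vehicle 3, with overlapping intervals for these 3 libraries. The means were 10.20 ± 0.40 and 11.03 ± 1.04, a difference of 0.83 (SE 0.51) that fell to 0.31 without anti-CD40 3 and was 1.35 without anti-CD40 2. With 322 to 1534 counts it was the most deeply counted of the 4 genes, so its spread was the least open to counting error.

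**Figure D3:**
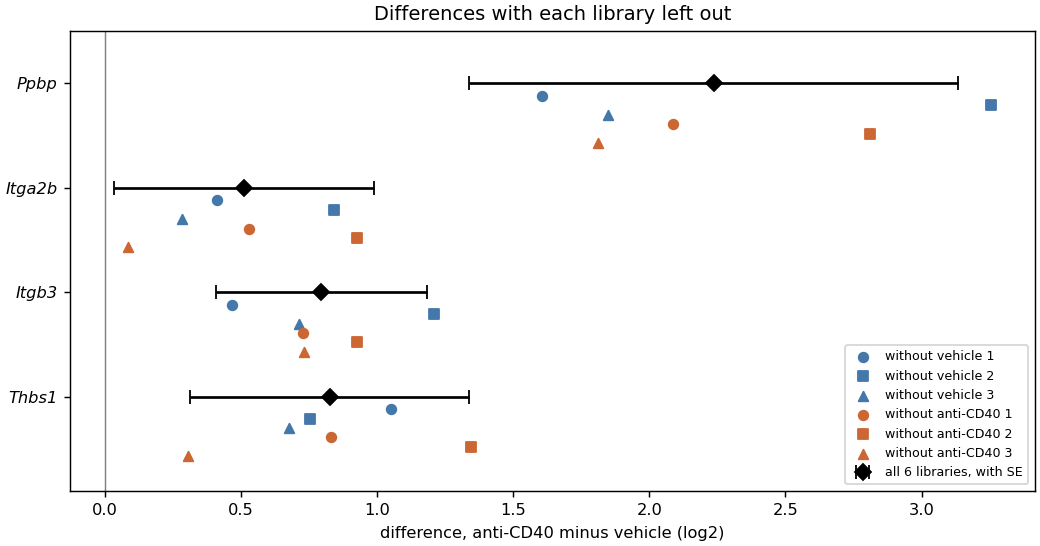
Difference between group means, anti-CD40 minus vehicle (log2, x axis), for each platelet gene with all 6 libraries (black, bar: SE) and with each library left out (coloured symbols). Every value is above 0, from 0.08 for Itga2b without anti-CD40 3 to 3.25 for Ppbp without vehicle 2.

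Across libraries, the members shared a low anti-CD40 2. It was the lowest anti-CD40 library for 4 of 4 genes, as it was for 23.8% of all genes. Anti-CD40 3 was the highest of its group for 3 of 4, against 23.8% of all genes, and Itgb3 alone peaked in anti-CD40 1, by 0.01. Vehicle 2 was the highest vehicle library for Ppbp, Itga2b and Itgb3 (49.1% of all genes), and vehicle 1 for Thbs1. These positions hold on the deposited values. With quantile normalization, centring on housekeeping genes or background subtraction, Itgb3 was highest in anti-CD40 3 as well. With quantile normalization anti-CD40 2 was the lowest of all 6 libraries for Itga2b and Thbs1, and with background subtraction for Itga2b.

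The ratio of 2 members within a library cancels its scaling, apart from the constant in the deposited values. Background does not cancel either, and the negative controls averaged 16.1 and 13.9 counts in vehicle 1 and 3. Probes of different genes need not count equally well, so only the change of such a ratio between libraries can be read. The log2 ratio of Ppbp to Itga2b was 2.45, 1.79 and 2.11 in anti-CD40 1, 2 and 3 (SD 0.33). It was 1.77 in vehicle 2, but −0.67 and 0.07 in vehicle 1 and 3, so vehicle 2 was like the anti-CD40 libraries in this ratio. The ratio is drawn from the same Ppbp values as above, so this likeness is no separate observation. The ratio of Ppbp to Thbs1 spanned 3.89 log2, from −4.43 in vehicle 1 to −0.54 in vehicle 2. That of Itgb3 to Itga2b spanned 1.31, from 0.02 in vehicle 1 to 1.33 in anti-CD40 2.

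**Figure D4:**
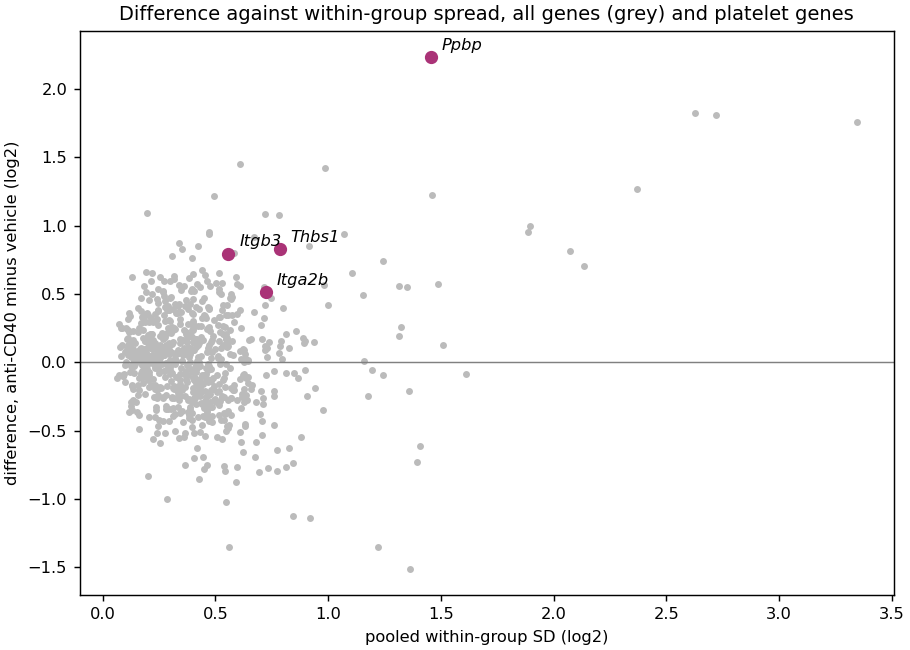
Difference between groups (y axis, log2) against the pooled within-group SD (x axis, log2) for all 770 genes (grey) and the 4 platelet genes (purple). Ppbp has the widest difference, 2.24, at a within-group SD of 1.46; the other 3 lie at SDs of 0.56 to 0.79.

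By likeness, each gene's values were centred on its mean and compared by the root mean square difference over the 6 libraries, among the 617 other genes above background in at least 3. The measure includes the group difference and favours genes of similar amplitude. Closest to Ppbp were Slamf1 (0.95 log2), Ccl9 (1.04), Itgb3 (1.05), Itga2b (1.14) and Ccl6 (1.15). Slamf1, a receptor of the SLAM family, was at or below background in all 3 vehicle libraries. It passed the filter only through the anti-CD40 libraries, where it was higher, so its closeness supports nothing. Ccl9, a CC chemokine gene, was 10.19, 10.71 and 9.58 in vehicle and 11.22, 11.06 and 11.83 in anti-CD40 libraries, a much narrower course than that of Ppbp.

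For Itga2b the closest were the small heat shock protein gene Hspb2 (0.34), the angiopoietin gene Angpt1 (0.37), Irf4 (0.38), Tnfrsf11b (0.38) and Ccl6 (0.39). Itgb3 was closest to Slamf1 (0.20), Cd38 (0.27), S100b (0.28), Bmi1 (0.30) and Timd4 (0.30). Here too Slamf1 had passed the filter only through the anti-CD40 libraries, so its closeness to Itgb3 supports nothing. Thbs1 was closest to the chemerin receptor gene Cmklr1 (0.43), the phosphatase gene Dusp4 (0.44), C3 (0.46), Itga2b (0.47) and the mast cell chymase gene Cma1 (0.47). The genes of the fibrinogen receptor were not each other's nearest: Itga2b ranked 47th from Itgb3 and Itgb3 21st from Itga2b, at 0.47. Thbs1 ranked 36th from Ppbp, at 1.36. Seen from the other members Ppbp was far, 581st of 617 from Itga2b, 574th from Itgb3 and 586th from Thbs1.

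The other measured platelet and megakaryocyte genes were Runx1, Vwf, Cd9 and F13a1, of which 3 had the higher mean in anti-CD40 tumours and 0 were called in either direction. F13a1 encodes the A subunit of coagulation factor XIII, which platelets and macrophages carry. It was 10.02, 9.95 and 9.63 in vehicle and 10.21, 10.34 and 10.47 in anti-CD40 libraries, so its groups did not overlap, as in 10.3% of all genes. Its means were 0.47 apart (SE 0.22, limma adjusted p = 0.974). Vwf, von Willebrand factor of platelets and endothelium, differed by 0.49 (SE 0.26, limma adjusted p = 0.974) with overlapping groups. Cd9, a tetraspanin abundant on platelets and epithelium, lay between 13.56 and 13.81 in all libraries, and Runx1, a transcription factor of megakaryocyte development, differed by 0.10 (SE 0.30). None of these 4 genes spanned more than Itgb3, the member with the narrowest span at 1.59 log2.

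In mouse, Ppbp lies between Cxcl5 and Pf4 in a cluster of CXC chemokine genes, by the order of genes in RefSeq, with Cxcl3, Cxcl15, Cxcl1 and Cxcl2 beyond Pf4. Of these 5 measured neighbours only Cxcl1 and Cxcl5 were above background in every library. Cxcl2 was above it in 4 libraries, Cxcl3 in 3 and Cxcl15 in 0, so the order of their low values cannot be read. Cxcl5 was 8.14 in anti-CD40 1 and 10.34 in anti-CD40 2, and Cxcl1 was 6.48, 8.61 and 6.72 in anti-CD40 1, 2 and 3. Both were highest of the group in anti-CD40 2 (as were 46.0% of all genes), where Ppbp was lowest. In the vehicle group Cxcl5 was highest in vehicle 2, at 9.49, like Ppbp, whereas Cxcl1 was highest in vehicle 3, at 8.67. Cxcr2, the receptor for CXCL7 and related ligands, was 7.01, 7.09 and 6.35 in vehicle and 7.26, 8.19 and 6.68 in anti-CD40 libraries, and so also peaked in anti-CD40 2. In the whole list of this receptor and related ligands, 6 of 9 were higher and 3 lower in the mean, from −1.13 for Cxcl1 to 0.56 for Cxcr2 with a median of 0.23, and 0 were called. Of these 9, 5 were above background in every library and 2 in none.

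**Figure D5:**
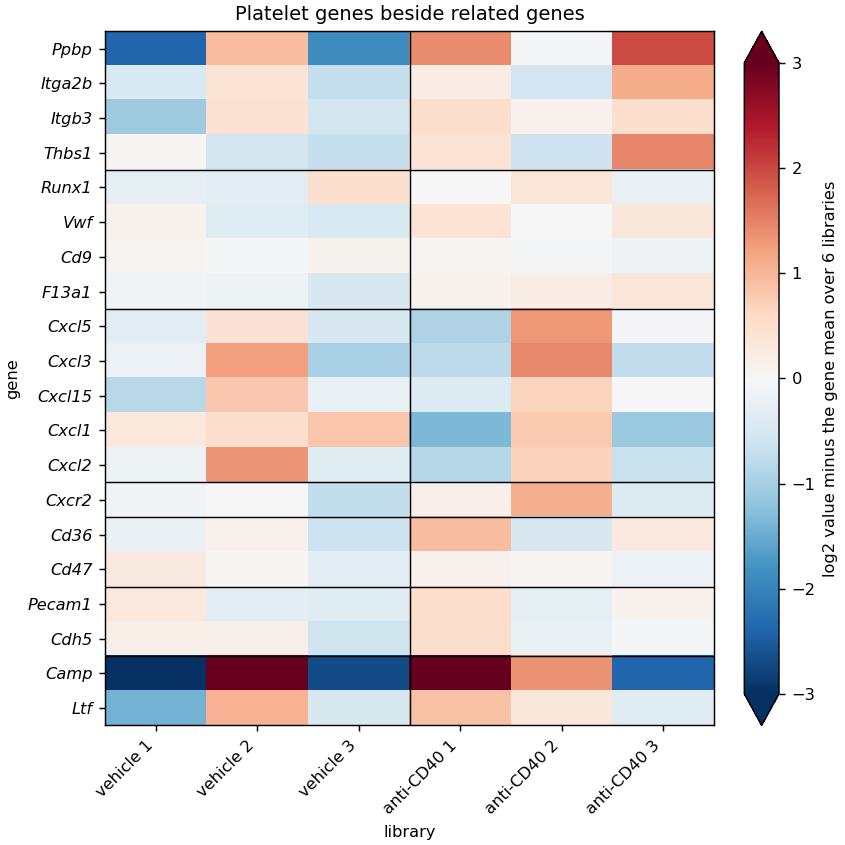
Log2 value minus the gene's mean over the 6 libraries (colour, beyond ±3 saturated) for the 4 platelet genes (top block) and related genes: other platelet genes, CXC neighbours of Ppbp, Cxcr2, thrombospondin receptors, endothelial genes and granule genes. Ppbp is high in vehicle 2, anti-CD40 1 and anti-CD40 3, Cxcl5 (10.34) and Cxcl1 (8.61) are highest of the anti-CD40 libraries in anti-CD40 2, and Camp is low in anti-CD40 3 (5.14).

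The lists of thrombospondin receptors, integrin chains and platelet signalling had median differences of 0.16, −0.08 and 0.10, beside 0.04 over all genes. Of 11 genes for thrombospondin 1 receptors and for TGF-beta, which thrombospondin 1 can activate, and its receptors, 8 were higher, 3 lower and 0 called. Cd36, a scavenger receptor that binds thrombospondin 1, differed by 0.48 (SE 0.40) and Itga6 by −0.58 (SE 0.42). Of 12 other integrin chains 5 were higher, 7 lower and 0 called, with Itga5, the fibronectin receptor chain, at 0.60 (SE 0.23) and Itga6 again the lowest. Of 20 genes of platelet adhesion and activation signalling 13 were higher, 7 lower and 0 called. In that list Syk, the kinase below platelet glycoprotein VI, differed by 0.26 (SE 0.32), and Cd40lg, the CD40 ligand gene, was 5.53 ± 0.48 and 5.59 ± 0.64, above background in 2 libraries. Cd40 itself differed by −0.25 (SE 0.34).

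Coagulation and fibrinolysis genes were 6 higher and 2 lower of 8, with 0 called. Of these 8, 6 were above background in every library and 1 in none. The 8 differences ranged from F13a1 at 0.47 to the urokinase gene Plau at −0.64 (SE 0.51), and thrombomodulin, Thbd, differed by 0.41 (SE 0.26). Among 12 measured cytokine and receptor genes of thrombopoiesis, 9 were higher, 3 lower and 0 called, with Cxcr4 at 0.40 and Flt3 at −0.75 as the extremes. Only 7 of the 12 were above background in every library and 3 in none, so the direction of the lowest cannot be read.

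Markers of other cell types that can carry the same transcripts were summed as normalised counts per library. The 10 endothelial markers, all above background in every library, summed to 14144, 10685 and 9573 in vehicle 1, 2 and 3 and 15811, 10427 and 13579 in anti-CD40 1, 2 and 3. Of them 8 were higher, 2 lower and 0 called, from −0.11 for Kdr to 0.49 for Vwf. The 3 libraries with the highest endothelial sums, anti-CD40 1, vehicle 1 and anti-CD40 3, were also the 3 with the highest Thbs1. Vehicle 1 had the lowest Ppbp and the second highest endothelial sum. Cd34 was the largest part of the sum in every library, at 11.89 to 12.54 log2. The part of endothelial cells in the Thbs1 and Ppbp values was not tested.

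The 6 fibroblast markers summed to between 20514 and 36646 in vehicle and between 28987 and 42127 in anti-CD40 libraries, all 6 higher in the mean by 0.10 (Pdgfrb) to 0.43 (Col3a1). The collagen genes Col1a1 and Col3a1 made up most of this sum in each library. The 11 macrophage markers summed to 4655 to 7620 and to 7115 to 7568, 9 higher and 2 lower, from −0.20 for Fcgr1 to 0.67 for Cd163. The lowest sums of both lists were in vehicle 3, where Thbs1 and Itga2b were lowest too, and vehicle 3 was the lowest vehicle library for 64.3% of all genes. Of 3 pericyte and smooth muscle markers, summing to 1810 to 2256 and 1859 to 2540, Mcam differed by 0.41 and Cspg4 by −0.36. The 4 mast cell markers summed to 535 to 749 and 775 to 989, with Cma1 at 0.61 and Ms4a2 above background in 0 libraries. In these 4 lists 0 genes were called. All fibroblast, pericyte and smooth muscle markers were above background in every library. So were 10 of 11 macrophage markers, with Marco above it in 1 library, and 2 of 4 mast cell markers, with Fcer1a above it in 4. The part of these cell types in the platelet gene values was not tested. The single osteoclast marker, Tnfrsf11a, differed by −0.19 and the single erythroid one, Tfrc, by 0.21.

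Granule genes of immature granulocytes, which like megakaryocytes mature in haematopoietic tissue, were high in part of the same libraries. The 7 genes summed to 1762, 4828 and 439 in vehicle 1, 2 and 3 and to 6341, 2644 and 790 in anti-CD40 1, 2 and 3. Lcn2 made up most of the sum in vehicle 1 (10.62 log2), anti-CD40 2 (10.55) and anti-CD40 3 (9.05). It was also the largest part in vehicle 3 (7.79). All 7 had higher means in anti-CD40 tumours, from 0.20 for Ctsg, above background in 2 libraries, to 1.76 for Camp, with overlapping groups and 0 called. Vehicle 2 was the highest vehicle library for 6 of 7, as it was for Ppbp. In anti-CD40 3, however, 6 of 7 were at or below background and Lcn2 was the lowest of its group, while Ppbp, Itga2b and Thbs1 were at their highest. The same 6 were at or below background in vehicle 1 too, where Ppbp was at its lowest and Lcn2 was the highest of its group. Of the 7, only Lcn2 was above background in every library, and Camp, Elane and Prg2 were above it in 3. Camp, the cathelicidin gene, was 10.81 in vehicle 2 and 5.14 in anti-CD40 3, at Ppbp levels of 9.51 and 10.56. Of 5 mature neutrophil markers 3 were higher, 2 lower and 0 called, from −0.10 (S100a8) to 0.66 (Csf3r). S100a8 made up most of their sum, and the mean log2 value of the 5 was highest in anti-CD40 2, at 9.98, and lowest in vehicle 3, at 7.90, followed by anti-CD40 3, where Ppbp peaked. Epithelial markers (1 higher, 3 lower of 4, from −0.36 for Cdh1 to 0.12 for Egfr) and leukocyte markers (1 higher, 3 lower of 4, from −0.29 for Ptprc to 0.42 for Itgam) were also 0 called.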

How the data were processed

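RNA had been extracted from fixed, embedded tumour tissue with a miRNeasy FFPE kit, per the labels' protocols. The authors deposited 1 table of log2 normalised counts, per its file name, with 770 genes, 6 positive and 8 negative controls in 6 libraries. No source used here names the platform, software or normalization. Each deposited log2 value was the logarithm of a library factor (1.72 to 3.28) times a whole count, plus 4.55 in every library. All 4704 values came out whole within 0.05, so counts could be recovered. This added constant understates differences of genes with few counts.

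All genes were fitted together with limma 3.58.1 (lmFit and eBayes, R 4.3.3), as a two-sided test, adjusted by Benjamini-Hochberg and called at 0.05. The procedure was also run on simulated data with independent noise, and its power is not reported here. A count of 0 called genes therefore does not show that the groups were alike. Tables and plots used Python 3.11.15, pandas 2.3.3, scipy 1.17.1 and matplotlib 3.10.9. Sensitivity was examined by scaling, background subtraction, a filter on low genes, the variance model, limma-voom, a replicate block and leaving out each library. The 4 genes and all lists were chosen with earlier results of these data known. Named were the 4 genes, all measured genes of the platelet list, the 5 nearest genes to each member and the extremes of each other list; further genes were chosen after their values were seen.

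Replicate libraries differed by far more than counting noise (chi-square per degree of freedom 64.2 to 121), so none was treated as a duplicate. This figure is summed over genes, so widely varying genes with many counts weigh heavily in it. Dmbt1, for example, had 578 counts in vehicle 1 and 38852 in vehicle 2.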

Additional observations from a re-analysis of the deposited data

How the results depend on the processing

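Under centring on 20 housekeeping genes, quantile normalization and background subtraction, the 4 differences kept their direction, at 2.02 to 2.63 for Ppbp, 0.40 to 0.55 for Itga2b, 0.68 to 0.93 for Itgb3 and 0.73 to 0.85 for Thbs1. With each library left out they ranged from 1.61 to 3.25, 0.08 to 0.93, 0.47 to 1.21 and 0.31 to 1.35. The within-group SD of Ppbp ranged from 0.87 to 1.67, and the number of genes whose groups did not overlap, 79 with all libraries, from 111 to 191, as fewer libraries overlap less. Genes called stayed at 0 in each of these, with the filter on low genes, with trended robust variances and with limma-voom, except that background subtraction called 1, Masp2, which was above background in no library and had 3 libraries at the floor of 1. The replicate block changed no call (0 genes, 32 at an unadjusted p under 0.05) and left the differences as they were. The numbers did not pair the samples: deviations from the group means correlated at −0.43, 0.07 and 0.28 for numbers 1, 2 and 3, and vehicle 2 correlated best with anti-CD40 1 (0.48). Counts of 38 to 64 limit the precision of the low Ppbp and Itga2b values, and 3 libraries per group cannot give an exact permutation p under 0.1.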
